A study of Oryza sativa with 24 samples.

Results

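The comparison described here is the difference in cold response between anthers of 2 rice lines, Lambayeque1 and Sasanishiki. It was chosen by design: the cold-minus-untreated difference of Lambayeque1 minus that of Sasanishiki, gene by gene, on log2(value + 1). It compared 12 of the 24 libraries of a series on rice anthers, which covers 4 lines. Only gene identifiers that stand on 1 row of the deposited files were used, 32511 of 37910. The spread behind each standard error and p-value was estimated from all 24 libraries, those of Nipponbare and PL9 included, as was the filter on low values. The 4 groups were Lambayeque1 after cold, Lambayeque1 untreated, Sasanishiki after cold and Sasanishiki untreated, with 3 libraries each. Cold meant 12 °C for 4 days, begun at the booting stage when the measure AD lay within 1 cm of 0, which the labels equate with early microspores. Untreated plants stayed in the greenhouse where all plants of both lines were raised, 20 to a pot, with days of 25 °C and nights of 19 °C. Replicates are as numbered in the titles. The series text gives another number of replicates, and no label says whether the libraries were taken from separate plants, so the p-values cover variation among the libraries alone, some or all of it possibly technical. The values are abundances per gene, named TPM by the authors, with no read counts, and the depth of each library is therefore unknown.

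An interaction of this kind asks whether a treatment moved a gene differently in 2 genotypes. It equals the line difference in cold minus the line difference in untreated anthers, so a gene can differ in its response because the lines differed without cold, because they differed in cold, or both. The tapetum is the innermost wall layer of the anther, which feeds the microspores and supplies their wall, and microspores near the tetrad stage are the stage of rice known as most easily made sterile by cold. Heat shock factors, dehydrins, abscisic acid and jasmonate signalling are pathways through which plants respond to temperature and drought, and the circadian clock sets the daily course of many of those genes.

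Each of the 12 libraries held 17563 to 18882 single-row identifiers at 1 or above. The 20 most abundant identifiers held 19.1% to 22.6% of the total in Lambayeque1 cold, 12.3% to 13.5% in Lambayeque1 untreated, 21.4% to 24.9% in Sasanishiki cold and 11.9% to 17.1% in Sasanishiki untreated libraries. The median correlation of a library with its own group was 0.9687 to 0.9826 in the other 3 groups and 0.9462 to 0.9597 in the untreated Sasanishiki libraries, which therefore resembled each other least. The summed level of 9 of the 11 tapetum markers was 48000 to 56800 in Lambayeque1 cold, 4820 to 7070 in Lambayeque1 untreated, 36500 to 48100 in Sasanishiki cold and 7010 to 16700 in Sasanishiki untreated libraries. Markers of stamen identity (3 of 5) summed to 2090 to 2850, 2960 to 3830, 1680 to 2020 and 1620 to 1950 in the same order of groups, and those of carpel and outer floret (5 of 7) to between 4.6 and 20.1 in all 12 libraries. The summed tapetum and stamen markers were thus high in all 12 libraries and those of carpel and outer floret low. OsC6 held most of the tapetum sum, joined by OsC4 in the cold groups only. Their means were 31390.29 and 16813.59 in Lambayeque1 cold and 9501.33 and 8.83 in untreated Sasanishiki. In untreated Sasanishiki RAFTIN1 came next after OsC6, with a mean of 1160.98. Meiocyte markers (4 of 8) summed to 8.71 to 11.9 in Lambayeque1 cold and 17.8 to 25.3 in Lambayeque1 untreated libraries. In Sasanishiki they summed to 16.1 to 27.3 in cold and 20.7 to 34.3 in untreated libraries. No marker used was at 0 in every library of a group, but 2 of the 9 tapetum markers were under 1 in all 3 untreated Sasanishiki libraries. The part of these differences in the results below was not tested. In bulk tissue, fewer cells of a type and less RNA per cell cannot be told apart.

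The cold response differed between the lines in 727 of 22495 genes tested, 3.23% (limma, Benjamini-Hochberg adjusted p under 0.05). It was more positive in Lambayeque1 in 322 of them (1.43%) and more negative in Lambayeque1 in 405 (1.8%), and 4113 genes (18.3%) had an unadjusted p under 0.05. The balance of directions turned without untreated Sasanishiki library 3 (659 positive, 629 negative) and was even without untreated Sasanishiki library 2 (354 and 353). The median size of the called differences was 1.54 on the log2 scale, with a median standard error of 0.34. It was at least 1 in 634 genes, at least 2 in 226 and at least 4 in 17. For comparison, cold alone changed 5122 genes in Lambayeque1 (22.8%) and 5638 in Sasanishiki (25.1%), and of all genes tested 1096 rose and 1213 fell in both lines.

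Most of the 727 genes moved in 1 line and did not pass the test in the other. Of the 405 with the more negative response in Lambayeque1, 194 fell in Lambayeque1 with no call in Sasanishiki, and 148 rose in Sasanishiki with no call in Lambayeque1. Another 30 fell in Lambayeque1 and rose in Sasanishiki, 21 fell in both lines by different amounts and 12 rose in both. Of the 322 with the more positive response in Lambayeque1, 147 rose in Lambayeque1 alone and 142 fell in Sasanishiki alone by these calls, 14 rose in Lambayeque1 and fell in Sasanishiki, 12 fell in both and 7 rose in both. The number of calls depended on single libraries. It was 1288 without untreated Sasanishiki library 3, and 375, 396, 452, 482 and 482 without Sasanishiki cold library 1, Lambayeque1 cold library 3, untreated Sasanishiki library 1, Lambayeque1 cold library 2 and Sasanishiki cold library 2.

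**Figure D1:**
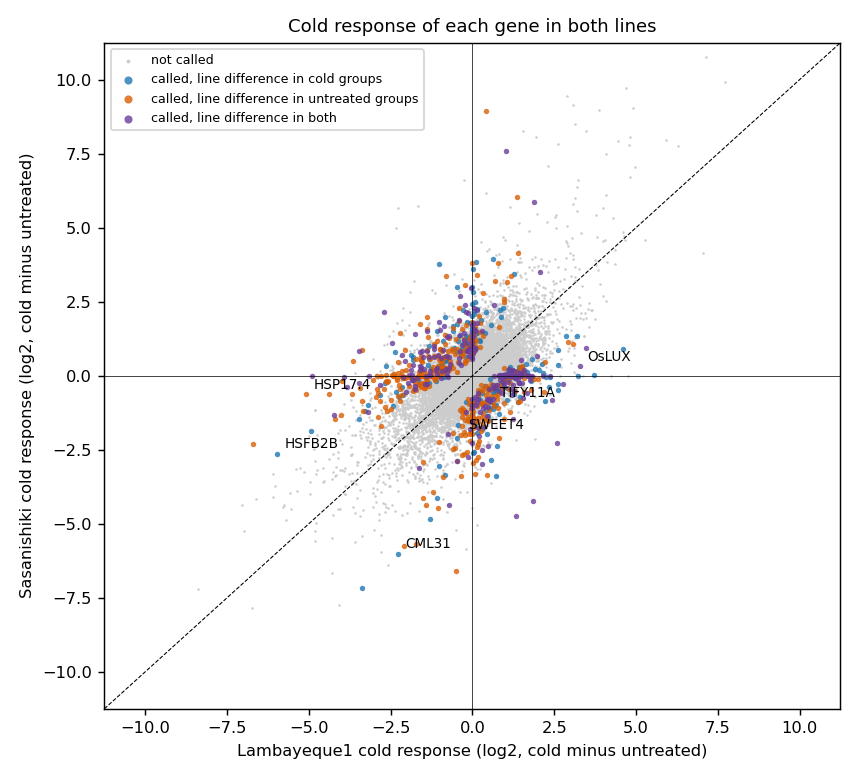
Cold response of each of 22495 genes in Lambayeque1 (x axis, log2, cold minus untreated) and in Sasanishiki (y axis, same scale), with the 727 genes of different response coloured by the treatment in which the line difference passed the test. The dashed line marks equal responses, and HSP17.4 lies at -5.08 in Lambayeque1 and -0.62 in Sasanishiki.

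The lines differed in many genes irrespective of the response: 5767 genes in cold (25.6%) and 7469 in untreated anthers (33.2%) passed the test of the line difference. All 727 genes of different response were among those that passed at least 1 of these. This largely follows from the interaction being the difference of these line differences, and is no separate result. The cold groups alone carried the line difference in 178 genes (24.5% of the 727), the untreated groups alone in 331 (45.5%), and both in 218. With library weights, whose estimation stopped before it converged, more genes lay in the cold class than in the untreated class (1813 and 1349). With gene-by-gene weights, chosen after seeing the data, these counts were 1062 and 1034. Without single libraries the counts were 74 to 280 in the cold class and 188 to 668 in the untreated class. The lowest came without Sasanishiki cold library 1 and the highest without untreated Sasanishiki library 3. The classes were defined by which line difference passed, so the sizes within them follow from that choice and are no separate result. In the 178 genes, the median size of the line difference was 1.47 in cold and 0.28 untreated. Lambayeque1 was the higher line in cold in 86 and the lower in 92, the same counts as positive and negative interactions. In the 331 genes, the median size was 0.29 in cold and 1.48 untreated. Among untreated anthers, Lambayeque1 stood above Sasanishiki in 202 of these and below it in 129, the same counts as negative and positive interactions. In the 218 genes, the line difference had the same sign in both treatments in 157 and changed sign in 61.

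A call in 1 treatment and none in the other does not by itself show where the lines differed more. A test of the summed line difference answers this, since the interaction times the sum is the difference of the squared line differences. The summed line difference passed in 9332 of all genes tested (41.5%). Where both passed, the lines differed more in cold in 224 genes and more untreated in 286, and 217 were not settled. The 224 comprised 123 of the cold-only genes and 101 of the genes with both. The 286 comprised 228 of the untreated-only genes and 58 of the genes with both. Without untreated Sasanishiki library 3, the counts were 263 genes with the larger difference in cold and 574 with the larger difference untreated, and without Sasanishiki cold library 1 they were 97 and 157.

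**Figure D2:**
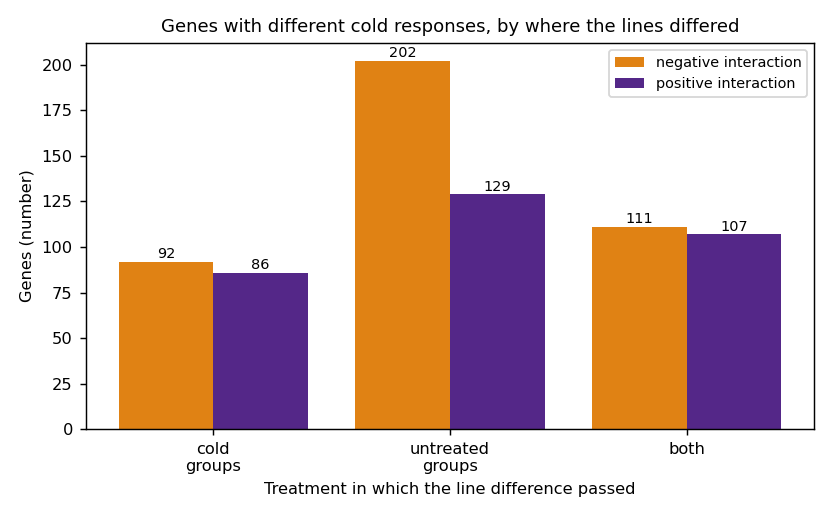
Number of genes with different cold responses (y axis) by the treatment in which the line difference passed the test (x axis), for negative interactions (Lambayeque1 response lower) and positive ones. The tallest bar is the 202 genes with a negative interaction in the untreated class.

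**Figure D3:**
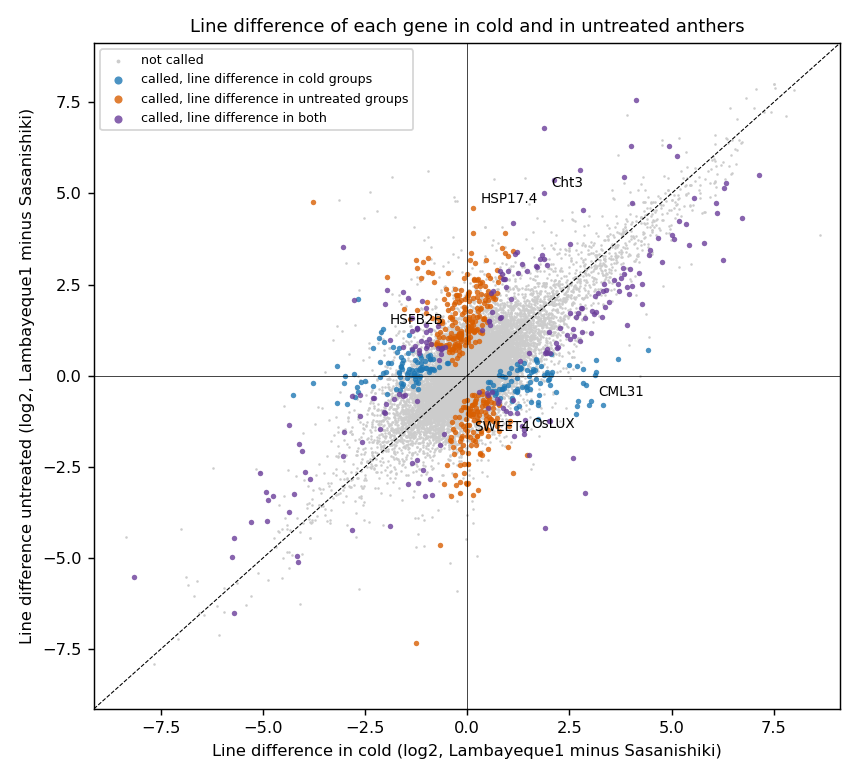
Line difference of each gene (Lambayeque1 minus Sasanishiki, log2) in cold (x axis) and in untreated anthers (y axis), coloured as in the plot of the responses. Genes near the vertical zero line differed only untreated, such as HSP17.4 at 0.15 in cold and 4.60 untreated, and genes near the horizontal zero line only in cold, such as CML31 at 3.04 in cold and -0.70 untreated.

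Among the lists of genes of anther development and stress, 6 of 109 tested members had a different cold response, 2 positive and 4 negative. That is 5.5%, against 3.23% of all genes. An unadjusted limma p under 0.05 was found for 35 members (32.1%, against 18.3% of all genes). The lists were chosen with earlier results of these data known, so these shares do not test whether the lists differ from other genes. Under at least 1 of the 24 alternatives, 34 of the 103 uncalled members gained a call. The matching share of all uncalled genes was not counted. With library weights alone, whose estimation stopped before it converged, calls over all genes rose from 727 to 4827 and those among members from 6 to 38. The median interaction of the 109 was -0.17, against 0.00 over all genes. The calls fell in 4 of the 16 lists. Heat shock factors and chaperones had 3 of 15, all negative, at a list median of 0.31. Dehydrins and cold-protective proteins had 1 of 8, negative. Jasmonate had 1 of 11 and the circadian clock 1 of 3, both positive.

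**Figure D4:**
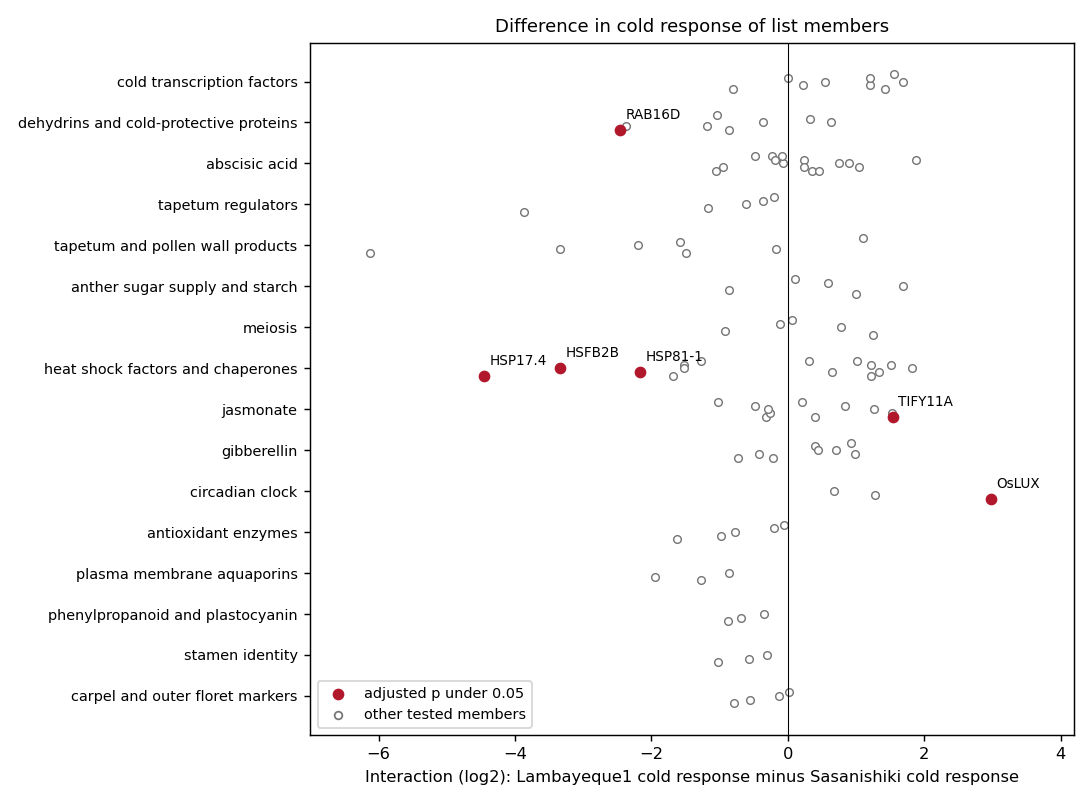
Interaction (x axis, log2, Lambayeque1 cold response minus Sasanishiki cold response) of each of the 109 tested list members, by list (y axis), with the 6 members that passed the test filled and named. The filled points run from -4.45 for HSP17.4 to 2.97 for OsLUX.

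The chaperone gene HSP17.4 (Os03g0266900) encodes a small heat shock protein, which holds unfolding proteins in solution. Its abundance was 3.58, 9.67 and 2.57 in Lambayeque1 cold against 119.5, 278.4 and 198.9 in Lambayeque1 untreated libraries, and 3.24, 4.95 and 4.09 in Sasanishiki cold against 8.31, 3.64 and 9.86 in Sasanishiki untreated libraries. The 3 untreated Lambayeque1 libraries stood far above all others, and the 2 cold groups overlapped. The gene fell by 5.08 on the log2 scale in Lambayeque1 (adjusted p = 2.99e-06), and its change of -0.62 in Sasanishiki did not pass (adjusted p = 0.433). The interaction was -4.45 (SE 0.74, adjusted p = 0.00251). The difference arose in the untreated groups, where Lambayeque1 was higher by 4.60 (adjusted p = 9.37e-07), against 0.15 in cold (adjusted p = 0.878), and the test of the sum placed the larger line difference there.

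HSP81-1 (Os08g0500700) encodes a cytosolic chaperone of the HSP90 family. It had 83.7, 52.4 and 99.2 in Lambayeque1 cold against 262.5, 285.6 and 256.6 in Lambayeque1 untreated libraries, and 147.2, 149.6 and 131.7 in Sasanishiki cold against 113.5, 67.2 and 178.9 in Sasanishiki untreated libraries. Lambayeque1 was the lower line in cold and the higher one untreated, without overlap in either treatment. HSP81-1 fell by 1.81 in Lambayeque1 (adjusted p = 3.48e-04), against a change of 0.36 in Sasanishiki (adjusted p = 0.443), an interaction of -2.17 (SE 0.43, adjusted p = 0.00902). The line difference passed in both treatments with opposite sign, -0.90 in cold (adjusted p = 0.0357) and 1.26 untreated (adjusted p = 0.00353), and which was larger was not settled.

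HSFB2B (Os08g0546800) encodes a class B heat shock factor, a group that in Arabidopsis acts mainly as repressors. Its abundance was 0.344, 0.255 and 0.245 in Lambayeque1 cold against 108.1, 33.9 and 134.2 in Lambayeque1 untreated libraries, and 7.68, 4.77 and 2.09 in Sasanishiki cold against 58.7, 12.8 and 43.5 in Sasanishiki untreated libraries. In cold every Lambayeque1 library lay below every Sasanishiki library, while the untreated lines overlapped. The gene fell in both lines, with changes of -5.97 in Lambayeque1 and -2.63 in Sasanishiki (adjusted p = 4.81e-07 and 0.0011), an interaction of -3.34 (SE 0.73, adjusted p = 0.0145). Here the line difference passed in the cold groups, at -2.07 (adjusted p = 0.00506), and did not untreated, at 1.27 (adjusted p = 0.0633); which was larger was not settled. The call was lost without Sasanishiki cold library 1, and with a pseudocount of 5 or a fit of the 12 libraries alone.

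The other 12 heat shock members did not pass the test of the interaction, and their values lay on both sides of 0. HSP18.0 (Os03g0267000) and HSP17.7 (Os03g0267200), small heat shock protein genes of the same gene cluster as HSP17.4, had interactions of -1.69 and -1.27 (adjusted p = 0.221 and 0.152). Their line difference passed in both treatments: HSP18.0 was higher in Lambayeque1 by 2.59 in cold and by 4.28 untreated, and HSP17.7 by 0.96 in cold and by 2.22 untreated. HSFA3 (Os02g0527300), an activating heat shock factor in Arabidopsis, had an interaction of 1.51 (95% interval 0.52 to 2.50 before adjustment, adjusted p = 0.0863), with abundances of 5.63 to 8.49 in Lambayeque1 cold, 12.3 to 26.8 in Lambayeque1 untreated, 6.11 to 7.39 in Sasanishiki cold and 34.3 to 100.3 in Sasanishiki untreated libraries. Small heat shock genes of a cluster are alike in sequence, and the authors' read assignment could split reads between them.

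RAB16D (Os11g0453900) encodes a dehydrin, a protein that protects cells as they lose water and is induced by abscisic acid. It was listed at 0 in all 3 Lambayeque1 cold libraries, against 1.87, 13 and 2.70 in Lambayeque1 untreated libraries, and had 0.154, 0 and 0.422 in Sasanishiki cold against 0.255, 0 and 0.180 in Sasanishiki untreated libraries. Only the untreated Lambayeque1 libraries exceeded 1, so a fall with cold could hardly show in Sasanishiki. The interaction on the log2(value + 1) scale was -2.46 (SE 0.55, adjusted p = 0.0184), and no fold is given because a group is listed at 0. The difference arose in the untreated groups, where Lambayeque1 was higher by 2.22 (adjusted p = 2.03e-04), against -0.24 in cold (adjusted p = 0.715), and was larger there by the test of the sum. The call was lost with a pseudocount of 5 and in a fit of the 12 libraries alone, and RAB16 genes stand beside each other with like sequences.

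The neighbouring dehydrin genes RAB16A and RAB16B did not differ by this test. RAB16A (Os11g0454300) had 0, 0.0884 and 0.135 in Lambayeque1 cold against 287.3, 168.9 and 926.7 in Lambayeque1 untreated libraries, and 0, 0 and 0.670 in Sasanishiki cold against 430.6, 39.5 and 297.3 in Sasanishiki untreated libraries. It fell in both lines, and its interaction of -1.19 had a 95% interval of -5.36 to 2.99 before adjustment, so a difference of several log2 units was not detectable. SalT (Os01g0348900), a salt-induced lectin gene, had an interaction of -2.38 (adjusted p = 0.0763). It was higher in untreated Lambayeque1 by 2.78 (adjusted p = 2.97e-04), against 0.40 in cold, where it was listed at 0 in all 3 Sasanishiki libraries. Of the 8 dehydrin and cold-protective members, 6 fell with cold in Lambayeque1 and 3 in Sasanishiki, against 11.5% and 12.5% of all genes.

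TIFY11A (Os03g0180800) encodes a JAZ protein, a repressor of jasmonate signalling that jasmonate itself induces. Its abundance was 130.1, 152.2 and 163.1 in Lambayeque1 cold against 108.5, 95.1 and 83.8 in Lambayeque1 untreated libraries, and 125.5, 143.5 and 103.7 in Sasanishiki cold against 262.7, 209.8 and 228.1 in Sasanishiki untreated libraries. The 2 cold groups overlapped and the untreated groups did not. The gene fell by 0.91 in Sasanishiki (adjusted p = 0.00748), and its change of 0.63 in Lambayeque1 did not pass (adjusted p = 0.0577). The interaction was 1.54 (SE 0.33, adjusted p = 0.0133) and arose in the untreated groups, where Lambayeque1 was lower by 1.28 (adjusted p = 2.65e-04), against 0.26 in cold (adjusted p = 0.457).

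Its neighbour TIFY11C (Os03g0180900), another JAZ gene, had almost the same interaction, 1.53, with a larger error (SE 0.52, adjusted p = 0.114). It ranged over 57.0 to 77.6 in Lambayeque1 cold, 66.2 to 99.0 in Lambayeque1 untreated, 53.0 to 68.2 in Sasanishiki cold and 95.5 to 345.1 in Sasanishiki untreated libraries. OsJAR1 (Os05g0586200), which forms the active jasmonate conjugate, had an interaction of 1.26 (adjusted p = 0.167), with a line difference of -0.54 in cold and -1.80 untreated. The other 8 jasmonate members had interactions between -1.03 and 0.83, and none passed.

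OsLUX (Os01g0971800) encodes a MYB factor whose Arabidopsis counterpart is part of the evening complex of the circadian clock. It had 25.1, 22.8 and 26.3 in Lambayeque1 cold against 2.44, 1.40 and 1.17 in Lambayeque1 untreated libraries, and 6.56, 6.43 and 16.0 in Sasanishiki cold against 10.7, 8.36 and 3.46 in Sasanishiki untreated libraries. Lambayeque1 was the highest group in cold and the lowest untreated, and the 2 Sasanishiki groups overlapped. OsLUX rose by 3.29 in Lambayeque1 (adjusted p = 4.18e-05), against a change of 0.32 in Sasanishiki (adjusted p = 0.674). The interaction was 2.97 (SE 0.63, adjusted p = 0.0128). The line difference passed in both treatments with opposite sign, 1.38 in cold (adjusted p = 0.0271) and -1.59 untreated (adjusted p = 0.00962), and which was larger was not settled.

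The other 2 clock genes tested had interactions of the same sign that did not pass. OsPRR1 (Os02g0618200), a pseudo-response regulator gene, had 24.3 to 41.1 in Lambayeque1 cold, 10.7 to 21.3 in Lambayeque1 untreated, 22.0 to 30.6 in Sasanishiki cold and 22.3 to 41.6 in Sasanishiki untreated libraries (interaction 1.27, adjusted p = 0.0513, called in 7 of 24 alternatives). OsELF3-1 (Os06g0142600), the counterpart of another Arabidopsis evening complex gene, had an interaction of 0.68 (adjusted p = 0.140). All 3 clock genes were lower in untreated Lambayeque1 than in untreated Sasanishiki, with line differences of -1.59, -1.03 and -0.62 for OsLUX, OsPRR1 and OsELF3-1. The hour at which anthers were collected is not given in the labels.

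Another 6 genes outside the lists were named after their values were seen, so they are examples and no count rests on them. PBZ1 (Os12g0555500) encodes a pathogenesis-related protein of the PR10 family, whose copies are alike in sequence. It had 29.2, 14.9 and 17.6 in Lambayeque1 cold against 318.2, 503.6 and 155.8 in Lambayeque1 untreated libraries, and 0.165, 0 and 0.452 in Sasanishiki cold against 0.0909, 0.0941 and 2.12 in Sasanishiki untreated libraries. Every Lambayeque1 library exceeded every Sasanishiki library. With no value above 2.12 in Sasanishiki, a fall with cold could hardly show in that line. The interaction was -3.44 (SE 0.90, adjusted p = 0.0405), with a line difference of 4.12 in cold and 7.56 untreated, larger untreated by the test of the sum. The call was lost without any 1 of 9 of the 12 libraries.

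Cht3 (Os06g0726100) encodes a chitinase, an enzyme that cuts the cell walls of fungi. It had 3.70, 3.30 and 1.66 in Lambayeque1 cold against 47.0, 21.0 and 35.2 in Lambayeque1 untreated libraries, and no value above 0.109 in the 6 Sasanishiki libraries. A fall with cold could therefore not show in Sasanishiki, and only the fall in Lambayeque1 entered the interaction. The interaction of -3.15 (SE 0.48, adjusted p = 0.00114) came with a line difference of 1.87 in cold and 5.02 untreated, larger untreated by the test of the sum. LEA17 (Os03g0322900), a late embryogenesis abundant protein gene, had 1.39, 1.24 and 1.90 in Lambayeque1 cold against 22.6, 24.6 and 102.5 in Lambayeque1 untreated libraries, and 4.81, 3.19 and 3.61 in Sasanishiki cold against 9.98, 2.79 and 3.02 in Sasanishiki untreated libraries. Untreated Lambayeque1 was the highest group and Lambayeque1 cold the lowest, with an interaction of -3.80 (SE 0.81, adjusted p = 0.0128) and a line difference of -0.95 in cold (adjusted p = 0.247) and 2.85 untreated (adjusted p = 6.75e-04); which was larger was not settled.

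CML31 (Os01g0955100) encodes a calmodulin-like calcium-binding protein. It had 15.8, 4.2 and 15.4 in Lambayeque1 cold against 62.9, 47.4 and 50.7 in Lambayeque1 untreated libraries, and 0.110, 0.722 and 0.362 in Sasanishiki cold against 223.4, 74.9 and 39.6 in Sasanishiki untreated libraries. The untreated lines overlapped and the cold groups did not. CML31 fell in both lines, with changes of -2.27 in Lambayeque1 and -6.01 in Sasanishiki, an interaction of 3.74 (SE 0.82, adjusted p = 0.0157). The difference arose in the cold groups, where Lambayeque1 was higher by 3.04 (adjusted p = 5.18e-04), against -0.70 untreated (adjusted p = 0.378), and was larger there by the test of the sum. The call was lost without Lambayeque1 cold library 3 and with a pseudocount of 5.

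SWEET4 (Os02g0301100) and SWEET1B (Os05g0426000) encode sugar transporters of the SWEET family. SWEET4 had 83.1, 62.2 and 75.9 in Lambayeque1 cold against 105.5, 72.2 and 104.6 in Lambayeque1 untreated libraries, and 67.8, 93.8 and 62.7 in Sasanishiki cold against 469.6, 244.2 and 225.6 in Sasanishiki untreated libraries. The untreated Sasanishiki libraries stood above the other 3 groups, which overlapped. SWEET4 fell by 1.99 in Sasanishiki (adjusted p = 2.10e-05), against -0.34 in Lambayeque1 (adjusted p = 0.360), an interaction of 1.66 (SE 0.35, adjusted p = 0.0130) that arose in the untreated groups. SWEET1B was low throughout, at 2.49, 1.95 and 2.42 in Lambayeque1 cold against 0.727, 0.531 and 0.330 in Lambayeque1 untreated libraries and at most 0.430 in Sasanishiki libraries. Its interaction was 0.87 (SE 0.22, adjusted p = 0.0349), with the larger line difference in cold, and the call was lost without any 1 of 9 of the 12 libraries.

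**Figure D5:**
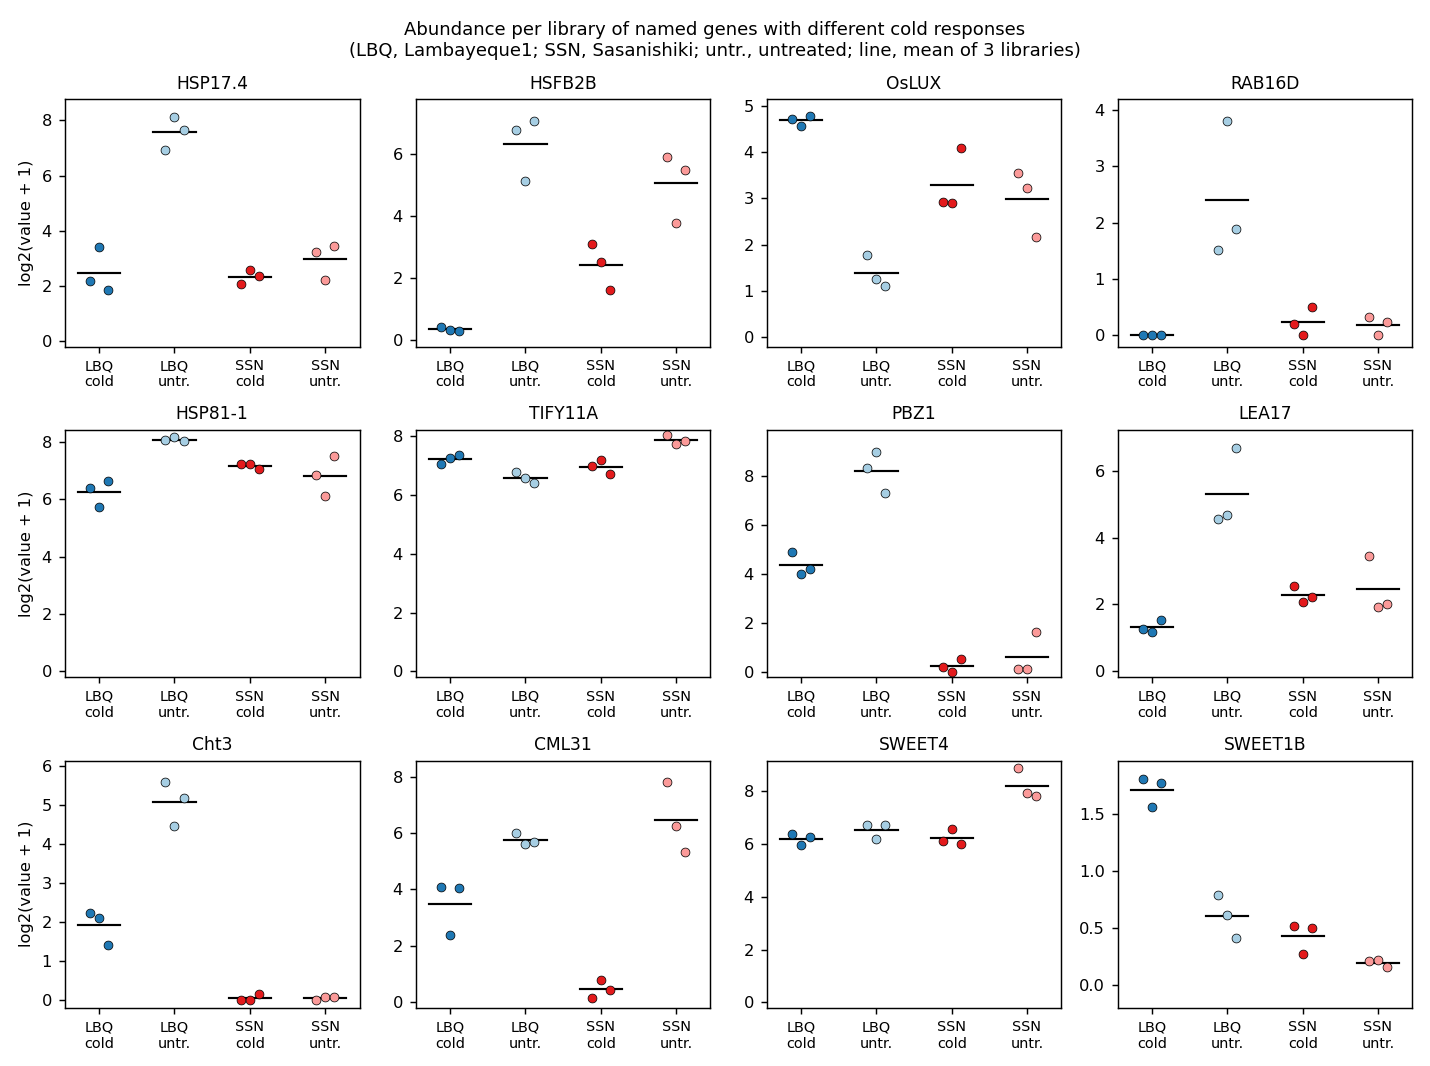
Abundance per library (y axis, log2(value + 1)) of the 12 named genes in Lambayeque1 cold, Lambayeque1 untreated, Sasanishiki cold and Sasanishiki untreated anthers (x axis); points are libraries and bars the mean of 3. HSP17.4, RAB16D and LEA17 are high in untreated Lambayeque1 alone. TIFY11A and SWEET4 are abundant in all groups and highest in untreated Sasanishiki, and CML31 is lowest in Sasanishiki cold.

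The most extreme interactions among genes that reached a group mean of at least 10 belonged to identifiers without a checked name. Os01g0127500 had 23.7, 120.4 and 27.8 in Lambayeque1 cold against 60.4, 33.0 and 15.9 in Lambayeque1 untreated libraries, and 924.5, 786.3 and 290.4 in Sasanishiki cold against 0.212, 0.164 and 0.280 in Sasanishiki untreated libraries. It rose by 8.94 in Sasanishiki alone, an interaction of -8.51 (SE 2.24, adjusted p = 0.0423), and its line difference passed untreated (4.75, adjusted p = 0.0264) and not in cold (-3.76, adjusted p = 0.0910), while the test of the sum did not settle where it was larger. Its call was lost without any 1 of 11 of the 12 libraries.

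Os03g0357500 showed the same order of groups, at 19.6, 117.7 and 42.8 in Lambayeque1 cold against 28.2, 39.6 and 9.89 in Lambayeque1 untreated libraries, and 422.3, 234.1 and 613.4 in Sasanishiki cold against 0.648, 2.55 and 0.437 in Sasanishiki untreated libraries. In both genes Sasanishiki was the higher line in cold and the lower one untreated, with no overlap of the lines in either treatment. Its interaction was -6.58 (SE 1.49, adjusted p = 0.0185), with a line difference of -3.05 in cold and 3.53 untreated that passed in both; which was larger was not settled, and the call was lost without Lambayeque1 cold library 1.

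In the positive direction, Os03g0852800 had 6.23, 10.5 and 8.98 in Lambayeque1 cold against 1.73, 1.68 and 1.41 in Lambayeque1 untreated libraries, and 3.41, 0.829 and 0.933 in Sasanishiki cold against 94.7, 83.3 and 12.1 in Sasanishiki untreated libraries. It rose by 1.85 in Lambayeque1 and fell by 4.24 in Sasanishiki, an interaction of 6.09 (SE 0.80, adjusted p = 3.37e-04). The line difference was 1.91 in cold and -4.18 untreated, both past the threshold, and was larger untreated. Os02g0497600 had 5.80, 10.1 and 9.63 in Lambayeque1 cold against 4.23, 1.74 and 2.46 in Lambayeque1 untreated libraries, and 0.194, 0.246 and 0.389 in Sasanishiki cold against 147.0, 63.8 and 3.22 in Sasanishiki untreated libraries. Its interaction was also 6.09 (SE 1.07, adjusted p = 0.00390), with a line difference of 2.87 in cold and -3.22 untreated, and which was larger was not settled.

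No member of the other 12 lists passed the test of the interaction (limma). Their counts at an unadjusted p under 0.05, given below, stand against 18.3% of all genes. Among the cold transcription factors 0 of 9 passed and 1 had an unadjusted p under 0.05, at a list median of 1.2. OsDREB1A (Os09g0522200), a factor that activates cold-induced genes, was low, at 0.144 to 0.458 in Lambayeque1 cold, 0.885 to 8.34 in Lambayeque1 untreated, 0.150 to 0.621 in Sasanishiki cold and 0.393 to 3.39 in Sasanishiki untreated libraries. Its interaction was -0.80 (95% interval -2.57 to 0.96 before adjustment). SNAC2 (Os01g0884300), a NAC factor of stress responses, fell in both lines, with changes of -2.53 in Lambayeque1 and -3.74 in Sasanishiki and with an interaction of 1.21 (interval -0.40 to 2.83).

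Among 15 abscisic acid genes 0 passed and 2 had an unadjusted p under 0.05, at a list median of 0.23. Cold lowered 10 of them in Lambayeque1 and 8 in Sasanishiki, against 11.5% and 12.5% of all genes. OsPP2C30 (Os03g0268600), a phosphatase gene of the abscisic acid pathway, had 14.7, 14.1 and 12.8 in Lambayeque1 cold against 84.8, 32.9 and 241.8 in Lambayeque1 untreated libraries, and 6.56, 3.55 and 12.7 in Sasanishiki cold against 344.4, 167.9 and 86.4 in Sasanishiki untreated libraries. It fell in both lines, and its interaction of 1.88 had an interval of -0.37 to 4.13.

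Several tapetum genes rose with cold in both lines, and none had a called difference in response. Of 7 tapetum and pollen wall products, 4 rose in Lambayeque1 and 7 in Sasanishiki, against 11.3% and 12.6% of all genes. For the interaction 0 of 7 passed and 1 had an unadjusted p under 0.05, at a list median of -1.58. OsC4 (Os08g0546300), a lipid transfer protein gene, had 10923.8, 21699.1 and 17817.8 in Lambayeque1 cold against 75.7, 196.9 and 28.1 in Lambayeque1 untreated libraries, and 6308.1, 12350.5 and 10373.8 in Sasanishiki cold against 7.53, 7.18 and 11.8 in Sasanishiki untreated libraries. Its interaction of -2.19 had an interval of -4.68 to 0.30, while Lambayeque1 was higher untreated by 2.98 (adjusted p = 0.0102).

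CYP703A3 (Os08g0131100), whose enzyme makes a hydroxylated fatty acid for the pollen wall, had the most negative interaction of all list members, -6.12 (SE 2.08). It did not pass (adjusted p = 0.114), but was called in 3 of 24 alternatives. Its abundance was 58.9, 346.4 and 85.7 in Lambayeque1 cold against 48.3, 28.4 and 20.6 in Lambayeque1 untreated libraries, and 424.3, 360.0 and 467.0 in Sasanishiki cold against 0.208, 0.558 and 0.951 in Sasanishiki untreated libraries. The untreated lines did not overlap, with Lambayeque1 higher by 4.35 (adjusted p = 0.0283). PTC1 (Os09g0449000), a regulator of tapetal breakdown, also had its lowest group in untreated Sasanishiki, with 1.15 to 7.65 in Lambayeque1 cold, 3.45 to 11 in Lambayeque1 untreated, 7.19 to 20.6 in Sasanishiki cold and 0.188 to 0.652 in Sasanishiki untreated libraries (interaction -3.87, adjusted p = 0.0997, called in 3 of 24 alternatives). EAT1 (Os04g0599300), a tapetal transcription factor gene, rose by 1.75 in Lambayeque1 and by 1.97 in Sasanishiki, an interaction of -0.21 (interval -1.23 to 0.80).

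Among 5 genes of sugar supply and starch 0 passed and 2 had an unadjusted p under 0.05, at a list median of 0.59. OsINV4 (Os04g0413200) is an anther invertase gene known to fall with cold in rice. It had 2.18, 1.88 and 1.80 in Lambayeque1 cold against 2.08, 1.16 and 1.65 in Lambayeque1 untreated libraries. In Sasanishiki it had 5.16, 4.53 and 5.13 in cold against 17.8, 3.12 and 59.5 in untreated libraries. It was lower in untreated Lambayeque1 by 2.69 (adjusted p = 0.00184), with an interaction of 1.68 (interval -0.10 to 3.46). CIN2 (Os04g0413500), a cell wall invertase gene, rose in both lines, by 4.37 in Lambayeque1 and by 3.78 in Sasanishiki, an interaction of 0.59 (SE 0.75, adjusted p = 0.736).

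Another 3 members had an adjusted p between 0.05 and 0.1. PIP1-2 (Os04g0559700), a plasma membrane water channel gene, had 220.6 to 366.0 in Lambayeque1 cold, 1023.8 to 1462.6 in Lambayeque1 untreated, 289.1 to 312.3 in Sasanishiki cold and 482.6 to 630.1 in Sasanishiki untreated libraries (interaction -1.28, adjusted p = 0.0509, called in 6 of 24 alternatives). OsMADS4 (Os05g0423400), a gene of petal and stamen identity, had 169.0 to 241.1, 269.2 to 331.2, 112.9 to 165.7 and 70.3 to 119.8 in the same groups (interaction -1.03, adjusted p = 0.0512, called in 6 of 24 alternatives). OsAPX2 (Os07g0694700), an ascorbate peroxidase gene that removes hydrogen peroxide, had 465.6 to 752.3, 441.7 to 867.9, 768.2 to 803.1 and 174.5 to 416.3 (interaction -1.63, adjusted p = 0.0832, called in 3 of 24 alternatives). Of these 3 genes only PIP1-2 fell in both lines, with changes of -2.16 in Lambayeque1 and -0.88 in Sasanishiki.

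The remaining lists held 0 called members each. These were 5 tapetum regulators, 5 meiosis, 8 gibberellin, 5 antioxidant, 3 water channel, 3 phenylpropanoid and plastocyanin, 3 stamen identity and 4 carpel and outer floret genes, of which 1, 2, 2, 3, 2, 1, 2 and 1 had an unadjusted p under 0.05. MEL1 (Os03g0800200), an argonaute gene of germ cells, was lower in Lambayeque1 in both treatments, with a line difference of -1.93 in cold and -2 untreated and an interaction of 0.06 (interval -0.74 to 0.87). Repeated identifiers, whose rows carry values of neighbouring libraries, were left out. When read back into 1 value per library they brought the list members tested to 160 and those called to 11. Over all genes, 936 of 27655 tested were called in that setting. Of the calls added, 3 were the single-row genes OsPRR1, PIP1-2 and OsMADS4 (adjusted p = 0.0493, 0.0473 and 0.0474). The repeated identifiers added were the heat shock factor genes HSFA2A (-2.97, adjusted p = 0.0339) and HSFB2C (-3.07, adjusted p = 0.00692), whose line differences were 0.13 and -1.44 in cold and 3.10 and 1.63 untreated.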

How the data were processed

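RNA of anthers was sequenced, and the authors deposited an abundance signal, which the file headers call TPM. The submitters' processing notes list kallisto 0.46.2, sleuth 0.30.0 and the build IRGSP-1.0. Column totals of the 12 libraries exceeded what TPM must add up to (1.22 to 1.51-fold), so the values were used as a signal on the authors' scale. Identifiers on several rows (5399) were left out, because their rows carry values of neighbouring libraries. Genes reaching 1 in 3 or more of the 24 libraries were kept (22495). The 8 group means were fitted to log2(value + 1) of all 24 libraries with limma 3.58.1 in R 4.3.3 (lmFit, eBayes with a trend), two-sided, with Benjamini-Hochberg adjustment over all genes and a threshold of 0.05. This scale understates changes of low genes. The fit was tested on simulated data of 22495 genes with normal noise. There it recovered 16.4%, 77.6% and 93.9% of interactions of 1, 2 and 4 on the log2 scale, and 3.1% of its calls were false. Effects were placed only in genes of higher abundance, on the same mean in all groups. The spread of a gene was equal in all libraries. These rates therefore check the fit and are not rates for the calls reported here.

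The members and lists were chosen with earlier results of these data known. The reference table of names is for another assembly (ASM3414082v1) without the files' identifiers, so a name was accepted where chromosome and relative place among the genes matched within 2%. Of 228 planned members, 169 agreed, and 117 of these stood on 1 row; members without an agreeing name were left out, a departure from the plan. No coordinates or sequences are printed. Named genes were the called list members with an interaction of at least 1 (6 genes), the 2 most extreme unnamed identifiers in each direction among genes reaching a group mean of 10, and examples without a call. The table could not name the other extreme genes, so 6 were added by hand after their values were seen. Python 3.11.15, pandas 2.3.3, numpy 2.4.6 and matplotlib 3.10.9 handled tables and figures. Alternatives covered the pseudocount, the filter, the scaling, the libraries fitted, the variance trend, library weights, repeated rows, a replicate block and each library left out, 24 in all.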

Additional observations from a re-analysis of the deposited data

Results flagged for a closer look

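The cold response differed between Lambayeque1 and Sasanishiki by the test of the interaction in 727 genes, among them the 16 listed here. Among list members the interactions were -4.45 for HSP17.4, -3.34 for HSFB2B, -2.46 for RAB16D, -2.17 for HSP81-1, 1.54 for TIFY11A and 2.97 for OsLUX. Among genes named after their values were seen they were -3.80 for LEA17, -3.44 for PBZ1, -3.15 for Cht3, 0.87 for SWEET1B, 1.66 for SWEET4 and 3.74 for CML31. Among identifiers without a checked name they were -8.51 for Os01g0127500, -6.58 for Os03g0357500, 6.09 for Os03g0852800 and 6.09 for Os02g0497600.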

How the results depend on the processing

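The number of genes with a different response was between 596 and 936 under the other pseudocounts, no filter, both rescalings, the 12-library fit, no variance trend, read-back rows and the replicate block. Of the 727, 413 were also called in the 12-library fit and 519 with a pseudocount of 0.1. With a filter of at least 5 it was 478 (258 negative), of which 115 lay in the cold class and 209 in the untreated class, with line differences larger in cold in 137 and larger untreated in 183, from fewer genes tested. Library weights gave 4827 calls (2319 positive, 2508 negative), 1813, 1349 and 1576 of them in the cold, untreated and both classes, 1355 larger in cold and 1792 larger untreated, 38 list members, 13527 line differences in cold, and 10349 and 9173 cold responses in Lambayeque1 and Sasanishiki; this estimation stopped before it converged. Gene-by-gene weights, chosen after seeing the data, gave 3123 (1490 positive, 1633 negative), 1062, 1034 and 980 in those classes, 809 larger in cold and 1188 larger untreated, 29 list members, 11648 line differences in cold and 9312 responses in Lambayeque1; the cause was not tested.

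Leaving out 1 library gave 375 to 1288 calls, 157 to 659 positive and 218 to 629 negative, 74 to 280 in the cold class, 188 to 668 in the untreated class and 113 to 319 in the class of both, 97 to 263 larger in cold and 157 to 574 larger untreated, and 5 to 14 list members. It gave 4389 to 6095 line differences in cold and 5776 to 7841 untreated, and 3505 to 5536 and 3438 to 5852 cold responses in Lambayeque1 and Sasanishiki. A group with 2 libraries was assumed to vary like the others.

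The replicate block gave 647 calls, 618 of them shared. Same-numbered libraries deviated with correlations of -0.39 to 0.27 (5 of 18 pairs over 0.1), against -0.26 to 0.43 for other pairs (16 of 36). Same-numbered libraries were thus no more alike than others by this measure. With 3 libraries a group, it cannot exclude a pairing by number. HSP17.4, OsLUX, HSP81-1, TIFY11A, LEA17, Cht3, Os03g0852800 and Os02g0497600 passed in every alternative. SWEET4 lost its call in the 12-library fit. PBZ1 also lost it with a pseudocount of 0.1, no filter and the block, SWEET1B with a pseudocount of 0.1, the 12-library fit and the block, and Os01g0127500 with a pseudocount of 5 and no filter. No named gene reversed. Without counts, depth sets no stated limit on any value.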

Other observations

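The genes of different cold response lay on all 12 chromosomes. The share of tested genes that were called ran from 2.38% on chromosome 4 (46 of 1929) to 4.73% on chromosome 6 (87 of 1838), against 3.23% over all genes, and was 4.44% on chromosome 10 (52 of 1172). On chromosome 6 the calls were 46 positive and 41 negative, and on chromosome 4 they were 14 positive and 32 negative. The share of genes whose lines differed was highest on chromosome 11, at 35.9% in cold and 39.9% untreated, while 3.58% of its genes differed in the response. Among 22483 pairs of tested identifiers that follow each other on a chromosome, both were called in 48, with the same sign in 30 and opposite signs in 18.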
